A study of Mus musculus with 4 samples.

Results

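The genes described here are the 53 autosomal protein-coding genes of the mouse whose symbols begin with Eif, the root used for eukaryotic translation initiation factors, out of 20665 autosomal protein-coding genes in the RefSeq annotation of GRCm38.p6, the assembly behind mm10. Each was taken by its symbol and not by its own values, but the set was chosen with earlier results of these data known. The symbol covers more than initiation factors in the strict sense: 8 of the 53 are regulators, namely the 4 eIF2 kinases Eif2ak1 to Eif2ak4, the eIF4E-binding proteins Eif4ebp1, Eif4ebp2 and Eif4ebp3, and Eif4enif1, and Eif4a3 and Eif5a are best known for other steps. The data came from Bruce-4, a line of embryonic stem cells from C57BL/6J mice kept on gelatin in serum/2i/LIF medium, without any treatment or genetic change being compared. ChIP-exo, an immunoprecipitation of chromatin in which an exonuclease trims each DNA fragment towards the bound protein, was run with antibodies against H3K4me3 (1 library), CTCF (2 libraries) and RAD21 (1 library), with 10000000 cells per replicate fixed in 1% formaldehyde for 10 min. Each antibody was represented by 1 deposited peak list, for CTCF a union list, so no value has a replicate and no test across samples was possible. The intervals given are Wilson 95% intervals over genes or peaks, cover counting error only, and treat neighbouring genes as independent.

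Translation initiation brings a ribosome to the start codon of an mRNA. eIF4F (the cap-binding eIF4E, the scaffold eIF4G and the helicase eIF4A) recruits the mRNA, eIF2 delivers the initiator tRNA, eIF3 holds the small ribosomal subunit, and eIF5 and eIF5B complete the joining of the large subunit. Stress kinases act by phosphorylating eIF2, which then blocks its own exchange factor eIF2B, and mTOR acts through the eIF4E-binding proteins. H3K4me3 is a histone mark of promoters that are active or poised. CTCF is a DNA-binding zinc finger protein at which the cohesin ring, of which RAD21 is a subunit, comes to a stop, so the 3 lists describe promoter chromatin and the chromatin loop machinery at these genes.

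Promoter windows of 300 bases, from 250 before to 50 after an annotated start, were held for 41 of the 53 genes in a RefSeq table of GRCm38.p6. The first 4 shown are examples of windows that overlap a CTCF peak. Capitals mark the bases inside the called CTCF peak, which reaches the start itself only in Eif5b. These 4 windows belong to Eif2s1 (chr12:78861822-78862121, plus strand), Eif5b (chr1:37997760-37998059, plus strand), Eif3f (chr7:108934165-108934464, plus strand) and Eif3g (chr9:20898541-20898840, minus strand), and all are written 5′ to 3′ in the direction of the gene.
Eif2s1: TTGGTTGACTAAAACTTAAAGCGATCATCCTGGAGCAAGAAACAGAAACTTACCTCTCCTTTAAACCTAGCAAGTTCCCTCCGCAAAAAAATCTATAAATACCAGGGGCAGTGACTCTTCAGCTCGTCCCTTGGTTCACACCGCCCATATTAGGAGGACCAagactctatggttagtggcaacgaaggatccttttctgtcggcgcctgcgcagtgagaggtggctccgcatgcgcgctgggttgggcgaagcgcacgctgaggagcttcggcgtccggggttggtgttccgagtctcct
Eif5b: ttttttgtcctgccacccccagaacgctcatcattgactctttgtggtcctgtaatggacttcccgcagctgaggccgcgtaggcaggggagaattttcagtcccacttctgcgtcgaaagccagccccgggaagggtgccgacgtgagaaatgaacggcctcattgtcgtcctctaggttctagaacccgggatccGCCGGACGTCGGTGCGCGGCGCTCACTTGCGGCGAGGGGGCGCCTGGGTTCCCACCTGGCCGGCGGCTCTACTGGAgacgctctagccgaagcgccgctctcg
Eif3f: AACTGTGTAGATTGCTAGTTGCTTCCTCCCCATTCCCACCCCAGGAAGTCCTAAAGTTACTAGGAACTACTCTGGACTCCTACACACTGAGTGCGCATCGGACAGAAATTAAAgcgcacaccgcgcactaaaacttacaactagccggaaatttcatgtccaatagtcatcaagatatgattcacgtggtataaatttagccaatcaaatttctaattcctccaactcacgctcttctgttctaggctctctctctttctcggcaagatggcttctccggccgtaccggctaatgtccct
Eif3g: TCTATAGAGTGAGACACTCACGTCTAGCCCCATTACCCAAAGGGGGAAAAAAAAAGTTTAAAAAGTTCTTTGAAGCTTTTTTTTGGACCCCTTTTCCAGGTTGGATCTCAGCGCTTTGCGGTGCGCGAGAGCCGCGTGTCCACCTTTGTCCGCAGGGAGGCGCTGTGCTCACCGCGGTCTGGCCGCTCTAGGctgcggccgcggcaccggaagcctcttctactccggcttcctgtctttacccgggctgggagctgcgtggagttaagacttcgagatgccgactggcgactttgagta
The other 3 are the genes of eIF4F subunits whose windows hold the E-box CACGTG, marked in capitals, which reads the same on both strands and is bound by Myc and related proteins. The windows of Eif4a2 and Eif4g3, which also encode eIF4F subunits, hold no E-box. They come from Eif4e (chr3:138527018-138527317, plus strand), Eif4a1 (chr11:69672374-69672673, minus strand) and Eif4g1 (chr16:20672477-20672776, plus strand).
Eif4e: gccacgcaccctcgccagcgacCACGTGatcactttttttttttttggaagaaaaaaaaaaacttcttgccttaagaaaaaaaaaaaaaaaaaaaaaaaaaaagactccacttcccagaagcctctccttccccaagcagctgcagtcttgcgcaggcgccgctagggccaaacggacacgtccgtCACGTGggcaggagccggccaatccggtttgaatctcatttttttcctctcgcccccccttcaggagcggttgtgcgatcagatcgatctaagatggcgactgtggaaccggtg
Eif4a1: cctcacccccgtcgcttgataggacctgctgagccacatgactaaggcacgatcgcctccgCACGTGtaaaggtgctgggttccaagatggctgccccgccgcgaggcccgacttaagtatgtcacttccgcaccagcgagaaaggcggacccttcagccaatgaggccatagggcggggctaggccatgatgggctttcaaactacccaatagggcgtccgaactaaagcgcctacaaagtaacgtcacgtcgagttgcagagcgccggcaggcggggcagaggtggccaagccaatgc
Eif4g1: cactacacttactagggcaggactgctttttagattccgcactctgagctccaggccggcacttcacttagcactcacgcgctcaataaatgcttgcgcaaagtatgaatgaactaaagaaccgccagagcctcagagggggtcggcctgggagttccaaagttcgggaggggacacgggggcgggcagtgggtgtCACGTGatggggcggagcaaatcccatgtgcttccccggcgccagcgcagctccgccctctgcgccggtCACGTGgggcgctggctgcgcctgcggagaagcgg

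H3K4me3 was called at nearly all of the Eif genes. A peak lay within 1 kb of an annotated gene end, the window used throughout, at 49 of 53 Eif genes (92.5%, interval 82.1 to 97.0%), against 11928 of 20612 other protein-coding genes (57.9%). Over all autosomal protein-coding genes together the share was 58.0%, below the interval for the Eif genes. Of the 49 marked genes 37 had 1 peak, 11 had 2 and Eif5b alone had 3. The 8 regulators carried the mark at 7 genes and the other 45 members at 42. Both kinds of member were therefore mostly marked.

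The 4 genes without H3K4me3 at an end differed in how far the nearest peak lay. Eif4g3, which encodes a scaffold protein of the eIF4F complex, spans 215308 bp of chromosome 4 (137991779 to 138207086), and a peak of 1315 bp at 137993086 to 137994400 lay inside it, 1307 bp from its outermost end. That peak covered an annotated start of the gene at 137993455, so Eif4g3 was left out by the position of its outermost end and not for want of a promoter peak. Eif4ebp3, which encodes an eIF4E-binding protein, had its nearest peak 3304 bp away. At its lower end it had a RAD21 peak of 71 bp, the shortest length in that list. The remaining pair are copies of other members. Eif3j2 on chromosome 18 is a second copy of Eif3j1, and its nearest peak was 36987 bp away. Eif4a3l1, an Eif4a3-like gene on chromosome 6, had none within 140086 bp. How the authors treated reads that map to more than one copy is not given in the sources used here, so these last 2 absences are uncertain.

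**Figure D1:**
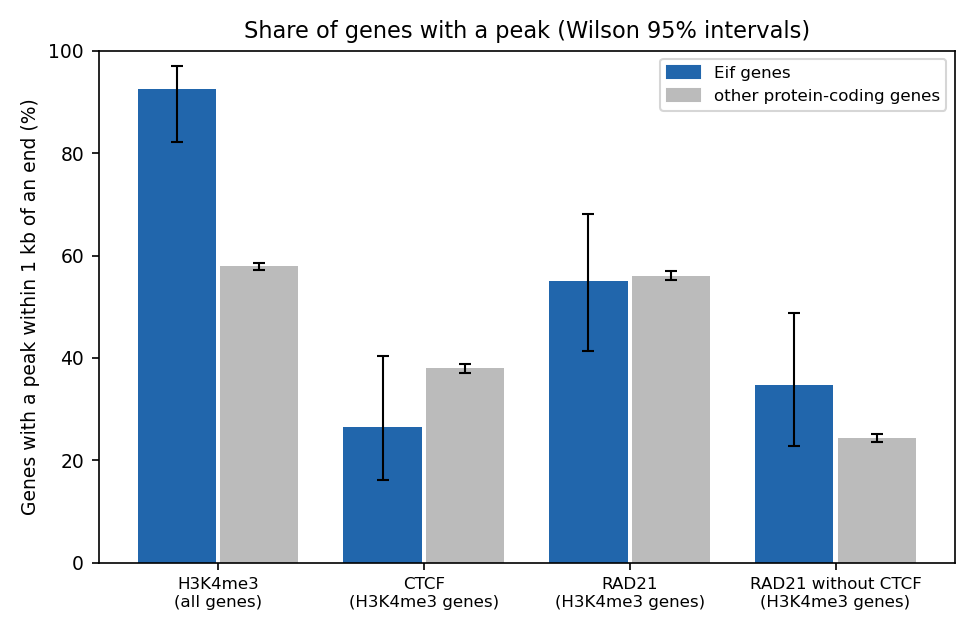
Share of genes with a peak within 1 kb of a gene end, in percent, for Eif genes (blue, left of each pair) and other protein-coding genes (grey, right). The first pair is over all genes and the other pairs are over genes with H3K4me3, and bars show Wilson 95% intervals. H3K4me3 stands at 92.5% of Eif genes and 57.9% of other genes, while the interval of the Eif genes spans the grey bar for CTCF, RAD21 and RAD21 without CTCF.

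The stretch of H3K4me3 was longer, by its median, at the Eif genes than at other marked genes. Peaks up to 1 kb apart were joined into a domain, and the widest domain of each gene was taken. Its median length was 1368 bp over 49 Eif genes (quartiles 1063 and 1722 bp) and 1041 bp over 11928 other marked genes (quartiles 746 and 1389 bp). The means were 1375 bp ± 445 (SD over the 49 genes) and 1097 bp ± 481 (SD over the 11928 genes). A 95% interval for the Eif median, from the ranks of the 49 lengths, ran from 1126 to 1618 bp and lay above the median of the other genes. Of the 49, 37 exceeded that median, 24 exceeded the upper quartile of the other genes (49.0%, against 25.0% of other genes by construction) and 3 fell under the lower quartile. The lengths of the Eif genes had their fullest bins between 1500 and 1750 bp (13 genes) and between 1000 and 1250 bp (11 genes), whereas the other genes were most frequent between 750 and 1000 bp. The difference of medians was 327 bp with the widest domain, and it was 188 bp when single peaks were taken without joining and 142 bp among peaks above the median length.

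**Figure D2:**
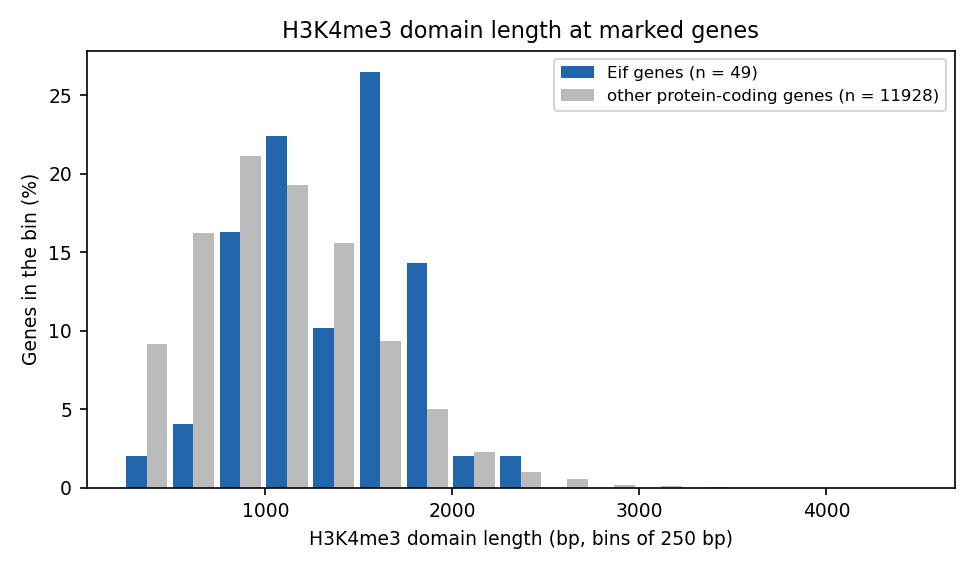
Distribution of H3K4me3 domain length in bins of 250 bp, as the percent of marked genes in each bin, for 49 Eif genes (blue, left) and 11928 other protein-coding genes (grey, right). Eif genes peak in the bin from 1500 to 1750 bp with 26.5%, where other genes have 9.34%.

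The widest domains belonged to factors of several steps. Eif5b, the GTPase that joins the ribosomal subunits, had 2303 bp on chromosome 1 (37996601 to 37998903). Eif1a, an autosomal gene for the scanning factor eIF1A, had 2090 bp, and Eif3b, a core scaffold subunit of eIF3, had 1992 bp. Eif4e, which binds the mRNA cap, had 1963 bp, and Eif5, the factor that makes eIF2 hydrolyse its GTP, had 1957 bp. All of these but Eif4e were joined from more than 1 peak, and the peaks of Eif5b were 607, 423 and 768 bp long. An end of Tmed7 lies 169 bp from the marked end of Eif1a, and the start of Txndc9 716 bp from that of Eif5b. These 5 genes were followed by Eif2s1 (1946 bp), Eif2s2 (1908 bp) and Eif4ebp1 (1869 bp), so the cap-binding protein and one of its inhibitors were both among the 8 longest. The start of Atp6v1d lies 64 bp from that of Eif2s1. The narrowest was 362 bp at Eif4e1b, a relative of Eif4e known from oocytes. That peak lay 993 bp beyond the upper end of Eif4e1b, which is 643 bp from the start of its neighbour Tspan17. The next were Eif2b2 (584 bp), Eif5a2 (724 bp), Eif6 (751 bp) and Eif2b3 (783 bp), 2 of which encode subunits of eIF2B.

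**Figure D3:**
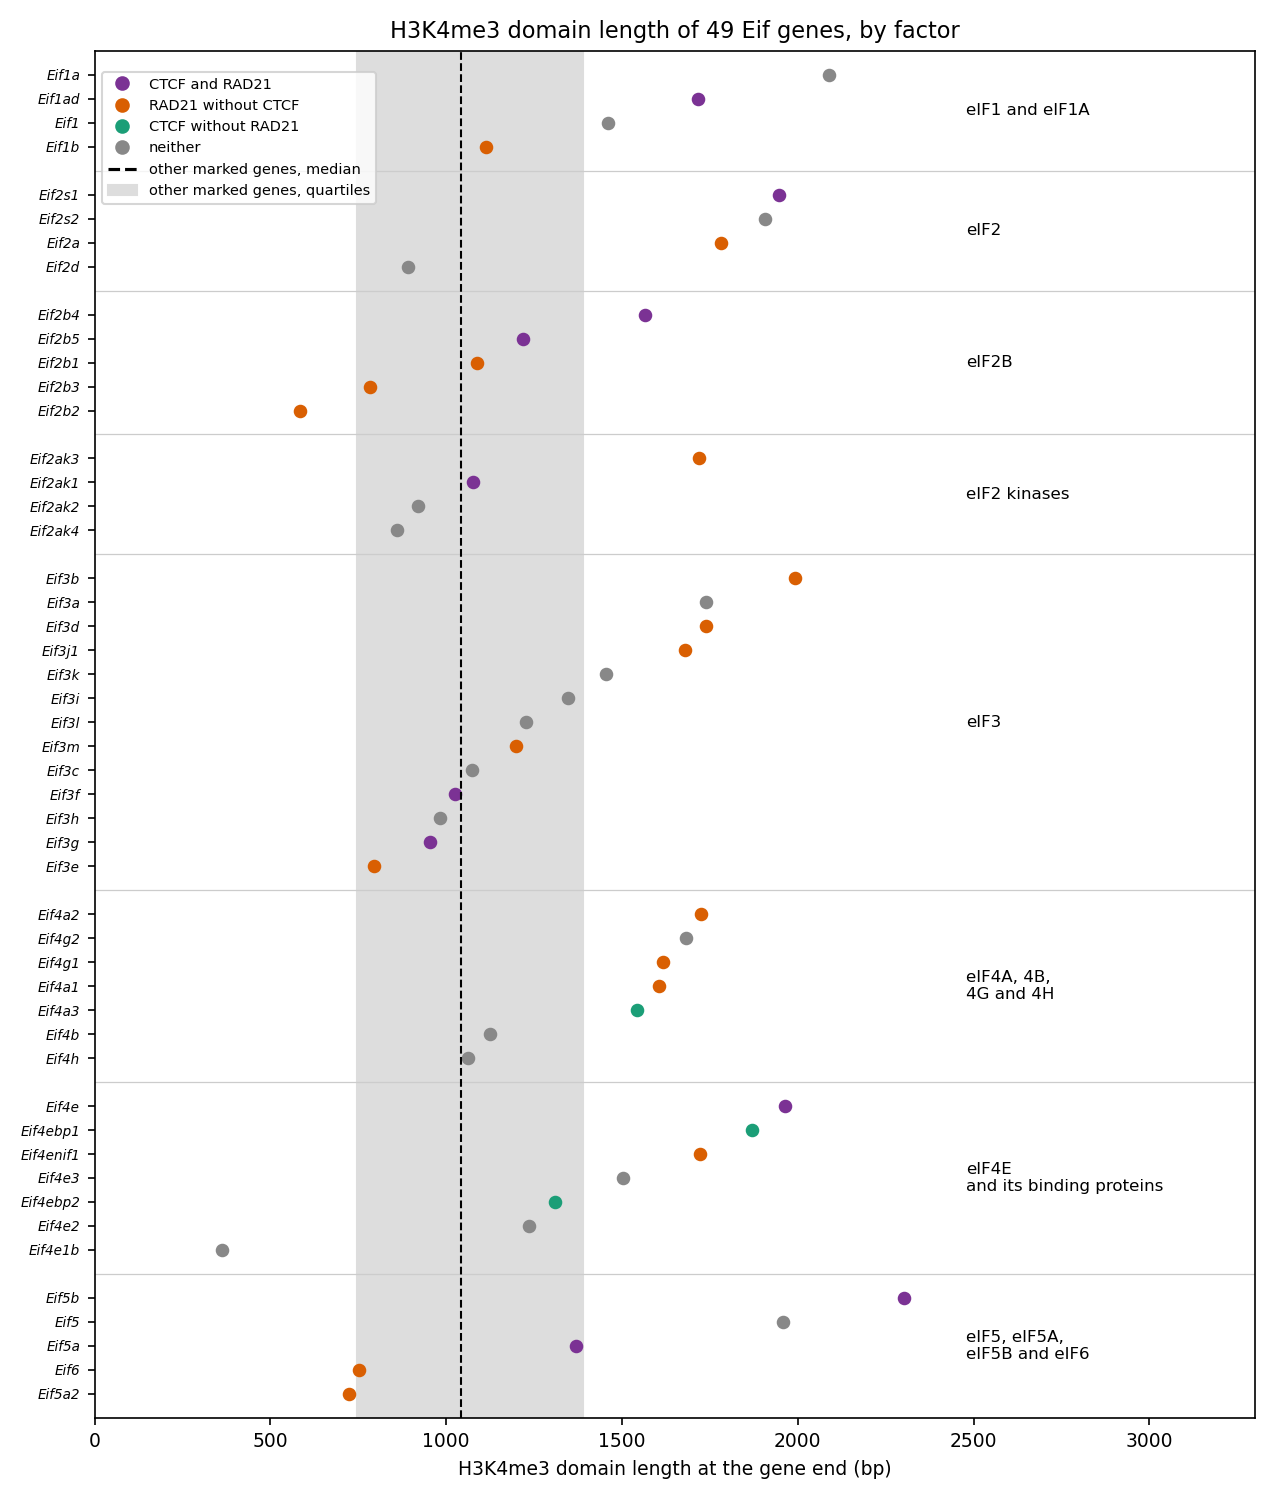
H3K4me3 domain length in bp of each of the 49 marked Eif genes, grouped by factor and ordered from longest to shortest within a group, with the colour showing CTCF and RAD21 peaks within 1 kb of a gene end. The dashed line is the median (1041 bp) and the grey band the quartiles (746 to 1389 bp) of the 11928 other marked genes. Most eIF2 and eIF4 genes lie right of the band, and all 5 eIF2B genes carry RAD21, as do 56.1% of all marked genes.

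The small scanning factors eIF1 and eIF1A keep the ribosome open until the start codon is found. All 4 autosomal genes of this group were marked, with a median domain of 1589 bp (1114 to 2090 bp), and all 4 exceeded the median of other genes. Eif1 itself, only 2151 bp long on chromosome 11 (100319949 to 100322099), was covered from its start for 1410 bp by a domain of 1461 bp and had neither CTCF nor RAD21. Eif1b, a close relative of Eif1, had a domain of 1114 bp and a RAD21 peak of 123 bp that ended 838 bp upstream of its start. Eif1ad, which encodes a protein with an eIF1A-like domain, had 3 CTCF peaks, the most of any member, and 2 RAD21 peaks. The group thus held both the member with the most CTCF peaks and members with none.

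eIF2 carries the initiator tRNA, and its alpha subunit is the target of the stress kinases. The genes of the autosomal subunits had long domains, 1946 bp at Eif2s1 (alpha) and 1908 bp at Eif2s2 (beta). They differed in the other lists. At Eif2s1 a CTCF peak of 205 bp (chromosome 12, 78861778 to 78861982) and a RAD21 peak of 226 bp lay together just upstream of the start, ending 90 and 94 bp before it, while Eif2s2 had no peak of either kind. In the Eif2s1 promoter printed above, the capitals run from 250 to 90 bases before the start. Factors with similar names that are no subunits of eIF2 were apart in length. Eif2a, which can deliver the initiator tRNA on its own, had 1782 bp and a RAD21 peak of 71 bp, and Eif2d, a factor of reinitiation and recycling, had 891 bp and neither. 

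eIF2B, the exchange factor that reloads eIF2 with GTP, had all 5 of its genes marked and a RAD21 peak at an end of each, beside 56.1% of all marked genes; it was 1 of 8 groups read in this way. Its domains were short for the Eif genes, with a median of 1087 bp and a range of 584 bp (Eif2b2, the beta subunit) to 1566 bp (Eif2b4, the delta subunit). At Eif2b1, Eif2b2 and Eif2b3 the RAD21 peak (216, 380 and 207 bp) lay across the gene end itself, without CTCF. At Eif2b5, the catalytic epsilon subunit, a RAD21 peak of 325 bp and a CTCF peak of 276 bp lay across the far end of the gene (chromosome 16, 20498795 to 20509325). Eif2b4 likewise had RAD21 at its far end, with CTCF at both ends. RAD21 was therefore at the marked end of 3 of the 5 genes and at the opposite end of the other 2.

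The 4 eIF2 kinases were all marked and had a median domain of 998 bp. Eif2ak3, which encodes PERK, the kinase of the endoplasmic reticulum, stood apart with 1719 bp. The haem-regulated kinase gene Eif2ak1 had 1076 bp, Eif2ak2 (PKR, which senses double-stranded RNA) 920 bp and Eif2ak4 (GCN2, which senses lack of amino acids) 860 bp. Eif2ak1 had 2 CTCF peaks, of 184 and 99 bp, which both overlapped 1 RAD21 peak of 618 bp upstream of its start, the longest RAD21 peak at any marked Eif gene. Eif2ak3 had only a RAD21 peak of 71 bp, the shortest length in that list, beyond its far end, and Eif2ak2 and Eif2ak4 had neither.

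eIF3, the large complex that bridges the small ribosomal subunit and the mRNA, had 13 of its 14 genes marked, Eif3j2 being the exception. The median domain was 1227 bp and 9 of 13 exceeded the median of other genes. Subunit genes ranged from 795 bp (Eif3e) to 1992 bp (Eif3b), with 1740 bp at Eif3a and 1739 bp at Eif3d. RAD21 was at 7 of the 13, CTCF at 2 and neither at 6, against 56.1%, 38.0% and 37.7% of other marked genes. Both CTCF genes had it just upstream of the start, together with RAD21. At Eif3f (chromosome 7, 108934415 to 108941942) a CTCF peak of 154 bp ended 138 bp before the start and overlapped a RAD21 peak of 461 bp. At Eif3g (chromosome 9, 20894349 to 20898590, minus strand) a CTCF peak of 238 bp ended 59 bp before it and overlapped a RAD21 peak of 167 bp. The domains of these genes, 1025 and 955 bp, were below the median of the other genes.

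The helicase and scaffold genes of eIF4 had long domains. The 7 marked of 9 had a median of 1604 bp, and all 7 exceeded the median of other genes. The helicase genes Eif4a1 and Eif4a2 had 1604 and 1726 bp, all of it downstream of the annotated start, from 57 bp past it at Eif4a1 and from 284 bp past it at Eif4a2. The scaffold gene Eif4g1 had 1618 bp at its start and a second domain of 746 bp beyond its far end. The start of Fam131a lies 211 bp past that end, and the single RAD21 peak of Eif4g1 (170 bp) lay in this second domain. Eif4g2, a scaffold relative that lacks the site for eIF4E, had 1681 bp. The helicase cofactor genes Eif4b and Eif4h had 1126 and 1063 bp, and neither had CTCF or RAD21. Eif4a3, a helicase of the exon junction complex, had 1542 bp and a CTCF peak of 37 bp, the shortest length in that list. Eif4g3 had no H3K4me3 within the window, as described above, but a RAD21 peak of 328 bp that overlapped CTCF, 861 bp outside its outer end.

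Among the genes of the cap-binding proteins and their partners, 7 of 8 were marked, with a median of 1503 bp. Eif4e had 1963 bp (chromosome 3, 138526455 to 138528417), a CTCF peak of 255 bp that ran from 238 bp before to 16 bp after the start, and a RAD21 peak of 338 bp farther upstream that did not overlap it. Another RAD21 peak, of 211 bp, lay at its far end. The inhibitor genes Eif4ebp1 (1869 bp) and Eif4ebp2 (1310 bp) each had a CTCF peak of 39 bp and no RAD21. In Eif4ebp1 it lay 513 bp inside the marked end, and in Eif4ebp2 at the unmarked far end. Eif4enif1, which carries eIF4E to the nucleus, had 1722 bp and a RAD21 peak of 300 bp. The cap-binding relatives Eif4e2 (1236 bp) and Eif4e3 (1503 bp) had neither protein.

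The late factors held both the longest domain of any Eif gene and 2 of the 5 narrowest. Eif5b and Eif5, with 2303 and 1957 bp, act at subunit joining and at GTP hydrolysis. Eif5a, whose product carries hypusine and is now placed mainly in elongation, had 1368 bp, and its relative Eif5a2 had 724 bp. At Eif5a a CTCF peak of 205 bp and a RAD21 peak of 303 bp overlapped near an upstream annotated start, and neither touched H3K4me3. From the start nearest the middle of the domain, CTCF ran from -1285 to -1081 bp and RAD21 from -1238 to -936 bp. Eif6, which keeps the large ribosomal subunit from joining too early, had 751 bp at its upper end and a second domain of 569 bp beyond its lower end, where the start of BC029722 lies 605 bp away. Eif6 and Eif4g1 were the 2 members with more than 1 domain (4.08% of the 49, against 4.80% of other marked genes).

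CTCF was at fewer of the marked Eif genes than of other marked genes, by a margin within counting error. It was at 13 of 49 (26.5%, interval 16.2 to 40.3%), against 4528 of 11928 (38.0%); the share was 27.2% over all autosomal protein-coding genes and 37.9% over all marked ones. The difference of -11.4 percentage points (interval -21.7 to 2.3) included 0. It turned to 4.38 percentage points when genes with touching windows were counted once, a setting in which an Eif gene also takes in the windows of the genes it touches. The 13 genes were Eif1ad, Eif2ak1, Eif2b4, Eif2b5, Eif2s1, Eif3f, Eif3g, Eif4a3, Eif4e, Eif4ebp1, Eif4ebp2, Eif5a and Eif5b, and together they had 17 CTCF peaks of median length 128 bp, against 122 bp at other marked genes. They came from every group of factors. Of these 17 peaks 11 overlapped RAD21 (64.7%, interval 41.3 to 82.7%), against 72.0% of the CTCF peaks at other marked genes. CTCF was within 1 kb of an end at 0 of the 4 unmarked Eif genes (interval 0 to 49.0%), against 12.5% of other unmarked genes, too few genes to show a difference.

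RAD21 was at the Eif genes about as often as at other marked genes. It was at 27 of the 49 (55.1%, interval 41.3 to 68.1%), against 6687 of 11928 (56.1%), with 39.4% over all autosomal protein-coding genes and 56.1% over all marked ones. The difference of -0.959 percentage points had an interval of -14.7 to 12.1, so differences of that size in either direction were not resolved with 49 genes, and it ran from -8.64 to 7.97 over the alternative settings. RAD21 without CTCF was at 17 genes (34.7%, interval 22.9 to 48.7%), against 24.3% of other marked genes. CTCF with RAD21 was at 10 (20.4%, interval 11.5 to 33.6%), against 31.7%. CTCF without RAD21 was at 3 (6.12%), against 6.23%, and these were Eif4a3, Eif4ebp1 and Eif4ebp2, whose CTCF peaks were 37, 39 and 39 bp long. Neither protein was at 19 (38.8%, interval 26.4 to 52.8%), against 37.7%. In all 4 classes the share of other marked genes lay within the interval of the Eif genes. Of the 30 RAD21 peaks at marked Eif genes 10 overlapped CTCF (33.3%, interval 19.2 to 51.2%), against 47.6% at other marked genes, and no Eif gene had 3 or more RAD21 peaks, against 1.48% of other marked genes.

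Both proteins were found more often at the marked end of a gene than at the other end. Of the Eif genes over 4 kb long, 45 carried H3K4me3 at a single end. RAD21 was at the marked end in 20 of these (44.4%) and at the other end in 7 (15.6%). In 10247 other genes of this kind the shares were 50.0% and 11.2%. CTCF was at the marked end in 11 of the 45 (24.4%) and at the other end in 4 (8.89%), against 30.3% and 9.92% of the other genes. Eif genes and other genes thus had the same order of the ends. A wider set, of genes over 2 kb long with a known strand and H3K4me3 at a single end, was used to place the mark. There the marked end was the start of 37 of 37 Eif genes and of 8501 of 8755 other genes (97.1%).

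Median domain length was higher at the Eif genes that also had CTCF or RAD21. The median domain was 1566 bp at the 27 Eif genes with RAD21 and 1328 bp at the 22 without, against 1045 and 1037 bp at other marked genes with and without it. It was 1542 bp at the 13 Eif genes with CTCF and 1291 bp at the 36 without, against 1048 and 1036 bp at other marked genes. The ranges overlapped widely, since Eif2b2 with RAD21 had 584 bp and Eif1a with neither had 2090 bp.

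A strand and an annotated start were available for 39 of the 49 marked Eif genes and 9524 other marked genes, which allowed the peaks to be placed in the direction of transcription. Where a gene had several annotated starts, the one nearest the middle of the domain was used for both groups. The start lay inside the domain in 32 of the 39 (82.1%, interval 67.3 to 91.0%), against 71.0% of other genes. A start in a gap between joined peaks, as at Eif5, Eif3b and others named below, was counted as inside. Starts inside a called peak alone were not compared between the groups. The domain reached a median of 867 bp downstream and 459 bp upstream of the start at Eif genes, against 736 and 293 bp at other genes, so the extra length was on both sides. It reached farther downstream than upstream in 30 of 39 Eif genes (76.9%) and in 75.1% of other genes. The longest downstream reaches were 2009 bp at Eif4a2 and 2000 bp at Eif2s2, and in both genes the domain began past the annotated start. The longest upstream reach was 1409 bp at Eif5b, whose neighbour Txndc9 starts 716 bp away on the other strand.

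Peak midpoints were instead placed from the annotated start nearest to each peak, in both groups. At Eif5a this put the CTCF and RAD21 midpoints 145 and 241 bp downstream of an upstream start. Of the CTCF peaks within 2 kb of the nearest annotated Eif start, 9 of 12 had their midpoint upstream of it (75.0%, interval 46.8 to 91.1%), with a median position of -185 bp, against 66.2% and -108 bp at other marked genes. For RAD21 it was 11 of 19 (57.9%, interval 36.3 to 76.9%) with a median of -90.5 bp, against 62.7% and -73.5 bp. H3K4me3 midpoints had a median of 248 bp downstream, against 228 bp. By their medians, CTCF and RAD21 lay ahead of the start and the H3K4me3 midpoint behind it in both groups. With 12 CTCF and 19 RAD21 peaks, the intervals did not settle on which side of the start most Eif peaks lay.

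**Figure D4:**
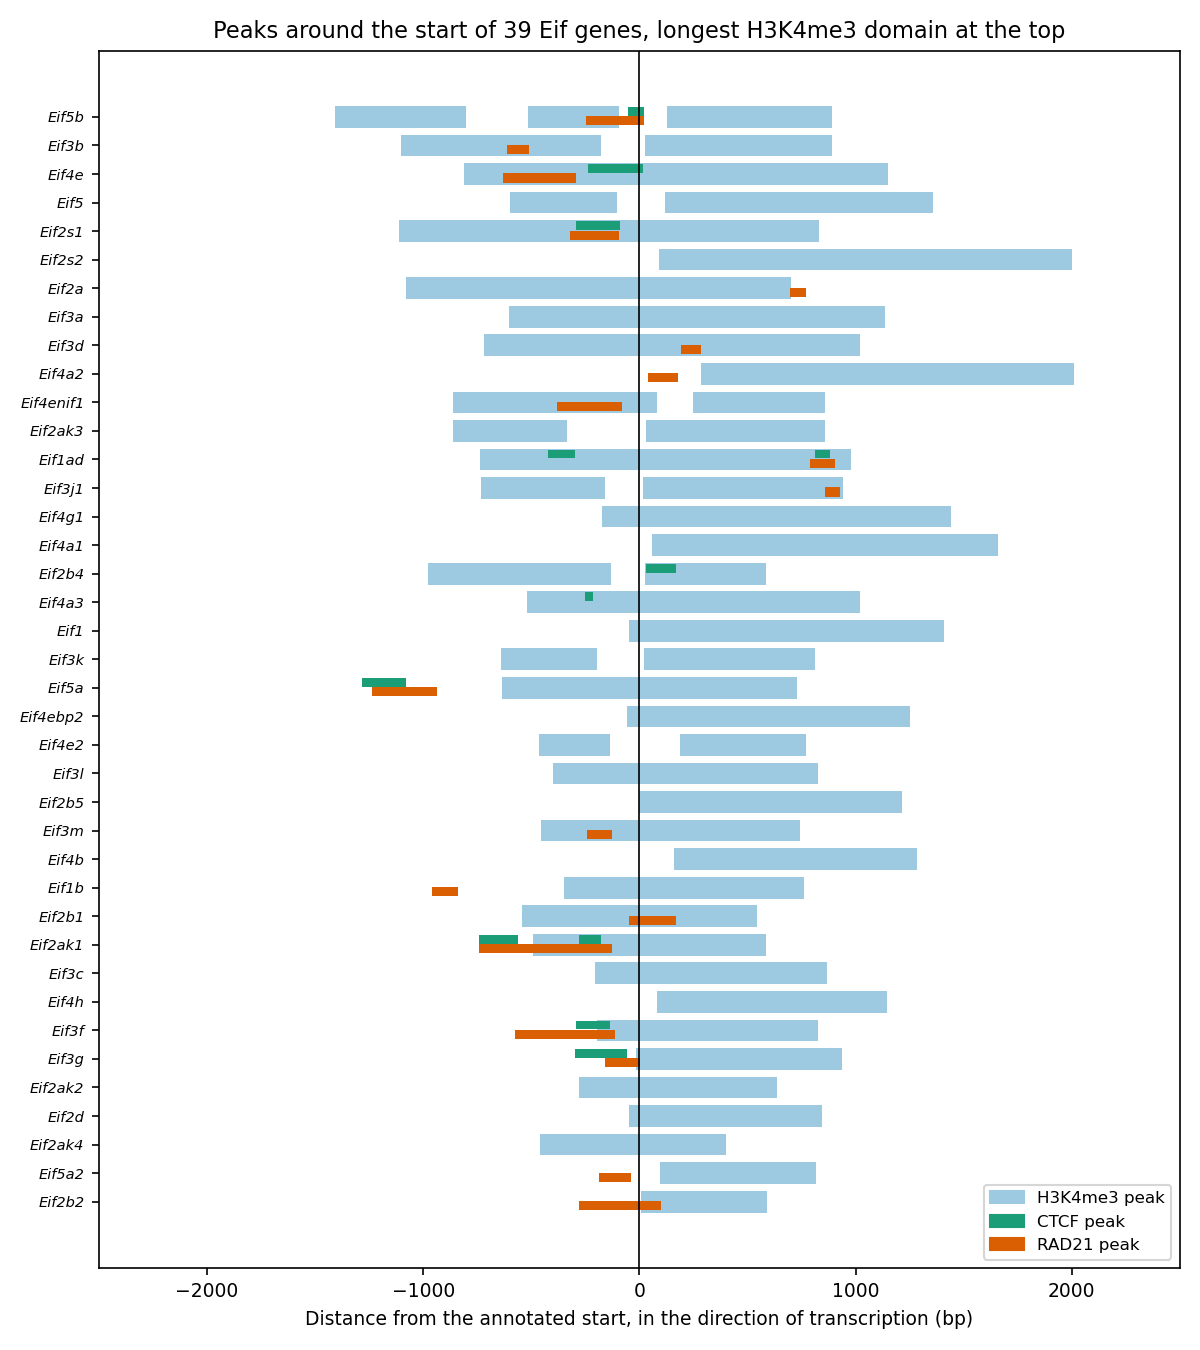
Called peaks around the annotated start (0 bp, vertical line) of the 39 marked Eif genes with a known strand, in bp along the direction of transcription, with the longest domain at the top. Blue bars are H3K4me3, green CTCF and orange RAD21 peaks within 1 kb of a gene end. In 8 genes, among them Eif5b, Eif5 and Eif3b, the start falls in a gap between 2 blue bars, and at Eif5b the gap holds CTCF and RAD21.

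At 10 of the 49 Eif genes (20.4%, against 15.7% of other marked genes) the widest domain was made of more than 1 peak, with 11 gaps of 156 to 365 bp between them. An annotated start lay in such a gap at 8 genes: Eif2ak3, Eif2b4, Eif3b, Eif3j1, Eif3k, Eif4e2, Eif5 and Eif5b. The gap was 223 bp at Eif5 and 204 bp at Eif3b. At Eif5b the gap of 219 bp (chromosome 1, 37997917 to 37998135) around the start held a CTCF peak of 76 bp, and a RAD21 peak of 268 bp ran into it. No other gap at an Eif gene held CTCF or RAD21. The capitals in the Eif5b promoter above run from 53 bases before to 22 bases after the start, the numbering counting the start base as 0.

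Eif genes often had another gene close by. The end of another protein-coding gene lay within 1 kb of an end of 25 of the 49 marked Eif genes (51.0%, interval 37.5 to 64.4%), against 35.0% of other marked genes. With lncRNA genes included it was 28 of 49 (57.1%, interval 43.3 to 70.0%), against 45.1%. At 16 Eif genes a coding neighbour lay at a marked end, and in 9 of these both strands were known and both genes started there. Pairs without both strands, such as Eif3i and Tmem234 (21 bp between ends), could not be counted among the 9. Examples were Eif2b1 and Gtf2h3 (17 bp between starts), Eif2a and Serp1 (63 bp), Eif1ad and Banf1 (63 bp), Eif2s1 and Atp6v1d (64 bp), Eif2b4 and Snx17 (123 bp) and Eif3k and Map4k1 (160 bp). A domain at such a pair cannot be assigned to either gene. The median domain was 1522 bp at the 28 Eif genes with a neighbour at either end and 1227 bp at the 21 without. At other marked genes it was 1163 and 953 bp, so the Eif medians were higher in both classes. Some of the 28 had a neighbour only at an unmarked end. By the marked end alone, the median was 1585 bp at the 16 Eif genes with a coding neighbour there and 1227 bp at the other 33. That split was not made for other marked genes. RAD21 was at 64.3% of the 28 and 42.9% of the 21, against 57.7% and 54.7% of other genes. CTCF was at 25.0% and 28.6%, against 40.1% and 36.2%.

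Several Eif genes also host small nucleolar RNA genes, which guide chemical changes of ribosomal RNA. At least 1 lay inside 7 of the 49 marked Eif genes (14.3%, interval 7.10 to 26.7%), against 2.21% of other marked genes. Eif4a2 held 5, among them Snord2 and Snora81, and Eif4a1 held 3. Snora19 lay in Eif3a, Snord66 in Eif4g1 and Snora28 in Eif5. All 7 host domains were longer than the upper quartile of other marked genes, with 1604 bp at Eif4a1, 1618 bp at Eif4g1, 1681 bp at Eif4g2, 1719 bp at Eif2ak3, 1726 bp at Eif4a2, 1740 bp at Eif3a and 1957 bp at Eif5. Of all 49 marked Eif genes 24 (49.0%) exceeded that quartile, against 25.0% of other marked genes by construction. Domain length at host genes outside the Eif list was not measured, and a link between hosting and length was not tested.

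The letters of the promoters were searched on both strands in the windows of 41 Eif genes, a gene being counted if any of its starts had a match. Of these 41, 39 were marked. The E-box CACGTG was in 10 of the 39 (25.6%), against 11.4% of 9524 other marked genes, and in 10 of the 41 (24.4%), against 9.01% of all 16457 genes with a window. The 10 were Eif1b, Eif3a, Eif3f, Eif3k, Eif4a1, Eif4e, Eif4g1, Eif4h, Eif5a and Eif5a2. In the sequences printed above its first base stood at -228 and -64 from the start in Eif4e, at -189 in Eif4a1, and at -54 and 15 in Eif4g1. In Eif3f, printed with the CTCF bases in capitals instead, it stood at -68. Among the genes of eIF4F, Eif4e, Eif4a1 and Eif4g1 thus held a match and Eif4a2 and Eif4g3 did not. The letters CCGGAAG, to which ETS proteins bind, were in 15 of the 39 (38.5%), against 19.8% of other marked genes, and in 36.6% of the 41, against 13.3% of all.

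Other motifs were closer to the comparison genes. The SP1 letters GGGCGG were in 30 of the 39 marked Eif genes (76.9%), against 70.3% of other marked genes and 50.3% of all, and CCAAT was in 15 (38.5%), against 42.5% and 42.3%. The letters TATAAA were in 3 (7.69%), against 7.86% and 15.0%, the YY1 letters AAGATGGC in 3 (7.69%), against 5.00% and 3.59%, and the NRF1 motif in 1 (2.56%), against 2.29% and 1.49%. The CTCF core (CC, any 3 bases, AGG, any base, GGC) was in none of the 41, against 6.54% and 4.92%, which says only that this string was not in these windows. None of the motifs contains another, although matches can share letters at their edges. The windows were rich in CpG: the median of observed over expected CpG was 0.913 (quartiles 0.798 and 1.04) at 39 marked Eif genes, against 0.794 (quartiles 0.628 and 0.932) at other marked genes and 0.223 at other unmarked genes. The GC content was alike, with medians of 62.3% at marked Eif genes and 62.7% at other marked genes. For CpG and GC separately, a gene with several windows was given its highest value. A match is a description of the letters and not of a bound factor.

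Other genes of translation were read in the same way. Of 21 other initiation and regulatory genes, such as Pabpc1 and Mtor, 18 had H3K4me3 at an end, with a median domain of 1456.5 bp, CTCF at 8 of the 18 and RAD21 at 9. Of 13 genes of elongation, termination and rescue, 10 had H3K4me3, with a median of 1303.5 bp, CTCF at 6 and RAD21 at 7. All 20 genes of cytosolic aminoacyl-tRNA synthetases had it, with a median of 1292.5 bp, CTCF at 5 and RAD21 at 12. Over all autosomal protein-coding genes 58.0% had H3K4me3 at an end. Of all marked ones, 37.9% had CTCF and 56.1% had RAD21. The medians of all 3 lists lay, like that of the Eif genes, above the 1041 bp of other marked genes. The genes without H3K4me3 at an end were Atf4, Larp1 and Pdcd4 in the first list and Eef1a2, Eef2 and Hbs1l in the second, of which Larp1 and Pdcd4 had a peak inside the gene.

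Markers of the labelled cell type were checked. H3K4me3 was at an end of 9 of 10 embryonic stem cell markers, of 1 of 9 fibroblast markers (Thy1) and of 2 of 5 endoderm markers (Gata6 and Sox17). The share over all autosomal protein-coding genes was 58.0%. A peak inside the gene but at neither end was found for Esrrb in the first list, Col1a1 and Pdgfra in the second and Foxa2 and Gata4 in the third. The autosomes had 21006 peaks for H3K4me3 (median 683 bp), 50546 for CTCF (median 104 bp) and 74004 for RAD21 (median 141 bp). They gave positions only, so depth and peak height were unknown, and a missing peak shows only that none was called.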

How the data were processed

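Per the labels' protocols, chromatin of fixed Bruce-4 cells was analysed by ChIP-exo. The submitters' processing notes list MACS2, Picard 2.27.4, Bowtie2 2.4.5 and bedtools 2.30.0, with mm10 as build. Not given in the sources used here were the role of each, the thresholds, any control library and the making of the CTCF union. The deposited files hold 3 columns, chromosome, start and end, so the only quantity was position and the length in bp derived from it. Lists had a shortest peak of 294 bp (H3K4me3), 37 bp (CTCF) and 71 bp (RAD21).

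Gene ends on the 19 autosomes were those of RefSeq for GRCm38.p6. A gene was counted when a peak overlapped 1 kb around either outermost end by at least 1 bp, and H3K4me3 peaks up to 1000 bp apart were joined. Strand and starts came from RefSeq promoter windows, held for 41 members. Not matched were Eif1a, Eif2b3, Eif3e, Eif3h, Eif3i, Eif3j2, Eif4e1b, Eif4e3, Eif4ebp1, Eif4ebp3, Eif4g2 and Eif6. Python 3.11.15, numpy 2.4.6, pandas 2.3.3 and matplotlib 3.10.9 were used. The counting was tested on simulated peaks (200 of 200 planted genes found per list), and bedtools 2.31.1 differed at 0 of 20665 genes. Members, gene lists and motifs were chosen with earlier results of these data known, and no test was run. All members were counted, and those named with values were the unmarked, the 8 widest and 5 narrowest domains, those with CTCF, those with more than 1 domain and examples of each factor. Alternatives varied the window, the overlap, the peaks kept, the joining and the genes counted.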

Additional observations from a re-analysis of the deposited data

How the results depend on the processing

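The share of Eif genes with H3K4me3, 92.5%, kept its place above that of other genes under all 10 alternatives run (83.0 to 97.6%); it was 97.6% at gene starts alone, and its difference from other genes, 34.6 percentage points, was 42.8 with peaks above the median length. The CTCF share, 26.5%, was 46.0% with windows of 2.5 kb, 46.0% with touching windows counted once and 58.0% with peaks anywhere in the gene, and its difference, -11.4 percentage points, became 4.38 with touching windows counted once and stayed below 0 in the other 9. The RAD21 share, 55.1%, was 38.3% with windows of 500 bp, 72.0% with 2.5 kb, 34.8% with peaks above the median length and 78.0% with peaks anywhere in the gene, and its difference from other marked genes lay on both sides of 0 (-8.64 to 7.97). Peaks of the shortest length, 71 bp, made up 16.1% of the RAD21 list. Without the shortest peaks of each list, RAD21 was at 46.9% of marked Eif genes and 50.6% of other marked genes. Wider windows and fewer peaks change these shares by construction, in other genes too. The median domain, 1368 bp, was 1114 bp without joining, and its difference from other marked genes was 142 to 405 bp over the 11 alternatives. Including the X chromosome was chosen after seeing the data. No paired analysis was possible because each antibody had 1 peak list, and for the same reason no replicate could be left out. Unknown depth limits every absence. Intervals cover 49 or 53 genes and not repeats of the experiment.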

Other observations

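Initiation factor genes also lie on the sex chromosomes and were not counted above. Eif2s3x, the X-linked gene for the gamma subunit of eIF2, had a domain of 1221 bp with 1 CTCF and 1 RAD21 peak at its ends, and Eif1ax, the X-linked gene for eIF1A, had 1017 bp with neither. Eif2s3y, the Y-linked copy of the gamma subunit gene, had 499 bp with neither.

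The elongation factor gene Eef2 had no H3K4me3 peak at an end or inside the gene, and neither did Atf4, a transcription factor gene whose mRNA is translated when eIF2 is phosphorylated. Eef1a1 and Eef1b2, which encode parts of elongation factor eEF1, had domains of 1529 and 1797 bp. These genes were named after their values were seen.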
